A study of Mus musculus with 10 samples.

Results

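Among the genes that interferon switches on, 10 classical antiviral effectors, Ifit1, Ifit2, Ifit3, Isg15, Usp18, Rsad2, Oasl2, Bst2, Ifi44 and Rtp4, were followed through reprogramming of mouse fibroblasts with and without FoxO6. They were chosen by name, as textbook products of type I interferon and with earlier results of these data known, and are 10 of the 50600 genes listed for each library. Mouse embryonic fibroblasts (MEFs) of the CBA/CaJ X C57BL/6J background, taken at E13.5 and carrying an Oct4-GFP reporter, were infected with retroviruses made in PlatE packaging cells and cultured in iCD1 medium. Every library came from cells given Oct4, Klf4 and Sox2 (OKS). One arm received the red fluorescent protein DsRed as control (OKS + DR) and the other received Foxo6, a forkhead transcription factor (OKS + FoxO6). RNA was sequenced at days 0, 1, 3, 5 and 7, with 1 library for each arm and day, so that 10 libraries were available and no arm was repeated on any day.

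Type I interferons are secreted proteins that bind the receptor pair IFNAR1 and IFNAR2, and the kinases JAK1 and TYK2 then activate STAT2. Together with IRF9 it acts on a sequence called the interferon-stimulated response element and switches on a large set of genes. Fibroblasts are a classical cell type for this response, and its products block viral RNA, protein synthesis, budding or membrane traffic. Usp18 is both a product of the response and one of its brakes.

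The promoters of the effectors are shown first because the response element is the feature by which they are usually recognised. RefSeq promoters of build GRCm38.p6, from 250 bases before to 50 bases after the annotated start, were matched for 8 of the 10 genes. Usp18 and Rtp4 were not matched. The core was searched as GAAANNGAAA on both strands, where N is any base. It occurred in 5 of the 8 genes, with 2 matches each in Ifit1, Ifit3 and Bst2, 1 in Rsad2 and 3 in Isg15, and the matches in Isg15 and in Bst2 overlapped each other. Of the 32851 promoters in the same table, 3.44% held this core. All matches among the effectors lay between 160 and 51 bases before the start, and that stretch is printed 5′ to 3′ along the gene for the genes with a match and, for contrast, for Ifit2, Oasl2 and Ifi44, where these letters were not found in the window. Capitals mark the core on either strand. Other spellings of the element were not searched, so a gene without a match may still hold one.
Ifit1 (chr19:34640729-34640838, plus strand): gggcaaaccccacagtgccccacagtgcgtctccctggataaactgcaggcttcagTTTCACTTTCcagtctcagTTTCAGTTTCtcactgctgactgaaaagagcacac
Ifit3 (chr19:34583369-34583478, plus strand): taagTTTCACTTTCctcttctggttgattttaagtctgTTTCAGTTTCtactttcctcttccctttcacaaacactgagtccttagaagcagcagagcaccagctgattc
Isg15 (chr4:156200869-156200978, minus strand): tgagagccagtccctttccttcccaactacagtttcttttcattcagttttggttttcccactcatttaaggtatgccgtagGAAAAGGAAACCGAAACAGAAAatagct
Rsad2 (chr12:26456503-26456612, minus strand): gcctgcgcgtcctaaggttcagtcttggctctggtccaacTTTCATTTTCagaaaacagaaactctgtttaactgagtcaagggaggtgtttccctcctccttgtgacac
Bst2 (chr8:71537523-71537632, minus strand): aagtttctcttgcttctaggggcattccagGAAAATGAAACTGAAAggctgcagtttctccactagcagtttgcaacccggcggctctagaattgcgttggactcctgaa
Ifit2 (chr19:34550534-34550643, plus strand): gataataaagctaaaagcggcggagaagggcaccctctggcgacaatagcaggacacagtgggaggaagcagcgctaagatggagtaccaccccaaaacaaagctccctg
Oasl2 (chr5:114896774-114896883, plus strand): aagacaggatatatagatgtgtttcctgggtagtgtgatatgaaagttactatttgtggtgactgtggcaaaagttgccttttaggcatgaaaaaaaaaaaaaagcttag
Ifi44 (chr3:151749961-151750070, minus strand): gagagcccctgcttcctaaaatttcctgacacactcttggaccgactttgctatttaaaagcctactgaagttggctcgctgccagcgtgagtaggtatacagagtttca

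Ifit2 has a second annotated start, and no core was found there either. The gamma-activated site, read as TTCNNNGAA, occurred in the promoters of Ifit2 and Bst2 and in 8.30% of all promoters. In Bst2 it overlapped the first response element core. The forkhead core, read as TGTTTAC or TGTTTGC, occurred in those of Rsad2 and Ifi44 and in 8.48% of all promoters. A match in these windows is a description of the letters, and binding was not measured.

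Reads assigned to genes numbered from 1208379 to 2225750 per library, with a median of 1601151. Levels are given in TPM, a measure of transcript abundance that corrects for transcript length and depth. At this depth a gene near 1 TPM rests on a few reads. In the control arm Foxo6 stood at 0.61 to 2.29 TPM, and in the OKS + FoxO6 arm at 762 to 1356 TPM on every day including day 0, so the day 0 libraries already came from infected cells. Pou5f1 (Oct4) was at 2560 to 4569 TPM in OKS + DR and 3386 to 7071 TPM in OKS + FoxO6, with 3720 against 7071 TPM on day 5, and it was called higher with FoxO6 over the 5 days (log2 fold change 0.43, adjusted p = 0.0349 in edgeR's quasi-likelihood test). The part of this difference in the effector levels was not tested.

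In OKS + DR 8 of the effectors were at most 11.6 TPM on days 0 and 1, were higher on day 3, peaked on day 5 and declined on day 7. Bst2 followed this course from a higher starting level, and Ifit2 did not. In OKS + FoxO6 the sum of the effectors was still low on day 3 and rose on days 5 and 7. Summed over the 10 genes, the level in OKS + DR was 56.7, 78.6, 839, 1851 and 1074 TPM on days 0, 1, 3, 5 and 7, and in OKS + FoxO6 it was 50.1, 64.7, 135, 736 and 1020 TPM. The sums were therefore close on days 0, 1 and 7 and far apart on days 3 and 5. Oasl2 and Bst2 together made up between 55.1% and 77.4% of the sum in every library. In a culture of many cells, fewer responding cells and less RNA per responding cell cannot be told apart.

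**Figure D1:**
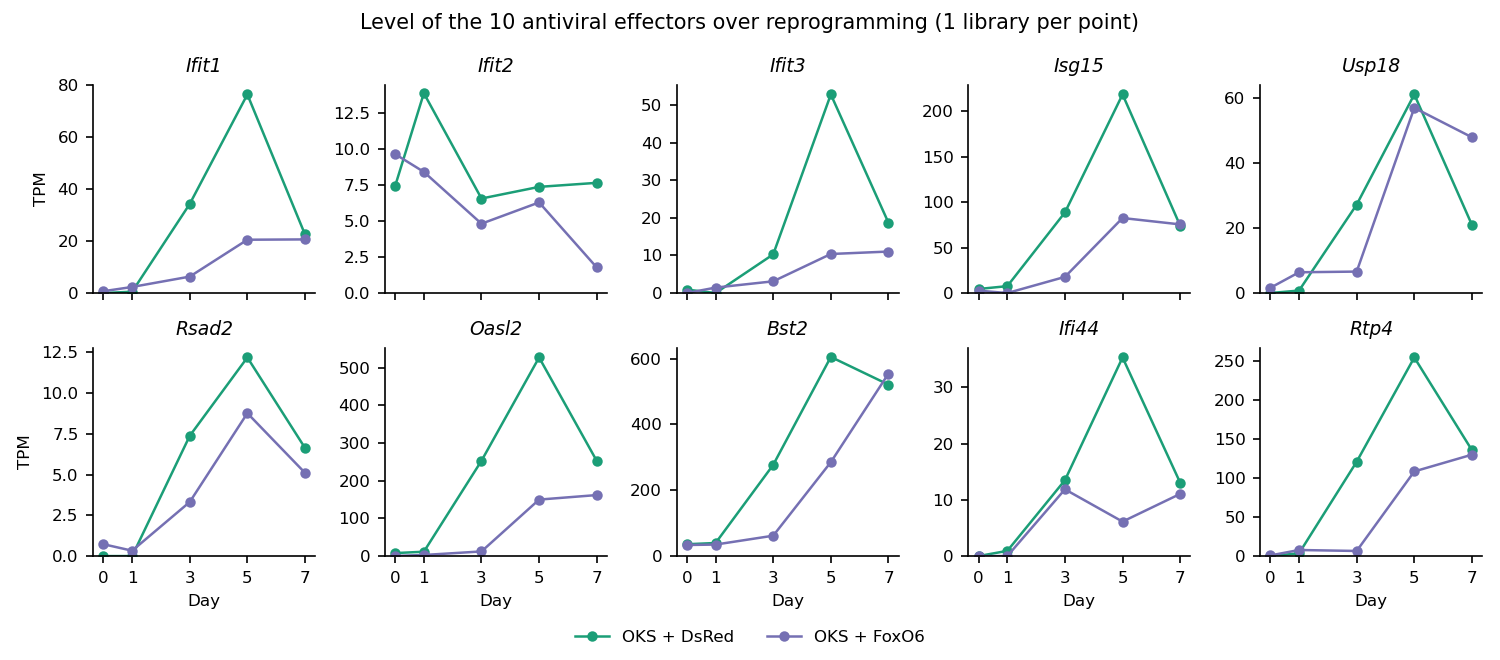
Level in TPM (linear vertical axis, a separate scale for each gene) of the 10 effectors on days 0, 1, 3, 5 and 7, with 1 library per point and no error bar, for OKS + DsRed (green) and OKS + FoxO6 (purple). In OKS + DsRed 9 of the 10 genes were highest on day 5, and Ifit2 had no such peak.

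The IFIT proteins are a family of interferon-induced proteins, of which IFIT1 binds RNA that lacks the marks of host messengers. Ifit1 (chr19:34640871-34650009 in GRCm38, plus strand) was at 0, 0.51, 34.3, 76.5 and 22.6 TPM in OKS + DR on days 0, 1, 3, 5 and 7. In OKS + FoxO6 it was at 0.70, 2.34, 6.33, 20.5 and 20.7 TPM. On day 3 it was detected with 65 reads in the control and 16 with FoxO6, a ratio of reads scaled to library size (CPM) of 5.37, control over OKS + FoxO6, with an exact 95% interval of 3.07 to 9.94 that covers counting error only. The ratio was 3.75 (2.72 to 5.25) on day 5 and 0.98 (0.66 to 1.47) on day 7, so that the arms were apart on days 3 and 5 and within counting error on day 7.

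Ifit3 (chr19:34583531-34588731, plus strand), a family member beside it on the chromosome, was at 0.92, 0, 10.3, 52.9 and 18.7 TPM in OKS + DR. In OKS + FoxO6 its levels were 0, 1.45, 3.12, 10.4 and 11.0 TPM. The control was 5.05 times higher on day 5, with an interval of 2.95 to 9.08. Part of its reads can be shared with the near-identical Ifit3b, which was at 18.9 TPM in the control and 6.25 TPM with FoxO6 on that day, so the split between the copies is uncertain. Both copies were higher in the control on day 5.

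Ifit2 (chr19:34550694-34576419, plus strand), a further family member in the same stretch, behaved differently. It was at 7.42, 13.9, 6.57, 7.38 and 7.66 TPM in OKS + DR and at 9.66, 8.42, 4.82, 6.30 and 1.78 TPM in OKS + FoxO6. The highest control value, on day 1, came from 20 reads over an estimated transcript length of 1903 bases against 3757 bases at day 0, and in CPM that day was not the highest. The lowest value, on day 7 with FoxO6, came from 6 reads against 28 in the control. Ifit2 was thus present from the start and did not join the rise of its relatives in either arm.

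ISG15 is a ubiquitin-like protein that is attached to other proteins, and USP18 removes it and blocks the receptor IFNAR2. Isg15 (chr4:156199424-156200818, minus strand) was at 4.45, 7.60, 88.7, 218 and 74.1 TPM in OKS + DR. With FoxO6 it was at 2.63, 0, 17.8, 82.5 and 75.5 TPM. The control was 4.96 times higher in CPM on day 3 (interval 2.58 to 10.3) and 2.67 times higher on day 5 (1.92 to 3.75), and on day 7 the ratio was 0.88 (0.58 to 1.34). The gap of days 3 and 5 was thus no longer measurable at this depth on day 7.

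Usp18 (chr6:121245906-121270917, plus strand) followed another course. In OKS + DR it was at 0, 0.77, 27.2, 61.2 and 21.0 TPM, and in OKS + FoxO6 at 1.59, 6.40, 6.61, 57.0 and 48.0 TPM. The control was 4.08 times higher on day 3 (interval 2.02 to 8.94), the arms were within counting error on day 5 with a ratio of 1.01 (0.72 to 1.41), and on day 7 OKS + FoxO6 was 2.50 times higher (1.58 to 4.05). The brake of the pathway was the only effector over 2-fold higher in OKS + FoxO6 on day 7.

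Rsad2 encodes viperin, a radical SAM enzyme that makes a nucleotide which stops viral RNA synthesis. It lies at chr12:26442746-26456452 on the minus strand and had the lowest peak of the genes that rose, at 0, 0, 7.38, 12.2 and 6.64 TPM in OKS + DR. In OKS + FoxO6 it was at 0.73, 0.33, 3.32, 8.77 and 5.11 TPM. The control was 2.20 times higher in CPM on day 3 (interval 1.03 to 4.94), and on days 5 and 7 the intervals included equality, with ratios of 1.40 (0.83 to 2.36) and 1.17 (0.60 to 2.31).

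Oasl2, of the oligoadenylate synthetase-like family that senses double-stranded RNA, showed the widest gap on the log2(TPM + 1) scale, -4.25 on day 3, while in CPM that of Rtp4 was wider. The gene lies at chr5:114896936-114912234 on the plus strand. It was at 7.93, 11.6, 253, 528 and 253 TPM in OKS + DR and at 0.30, 2.92, 12.3, 150 and 162 TPM in OKS + FoxO6. On day 3 it was detected with 356 reads in the control and 28 with FoxO6, a CPM ratio of 16.8 (11.4 to 25.6). The ratio narrowed to 3.43 (3.01 to 3.92) on day 5 and 1.36 (1.18 to 1.57) on day 7. Oasl2 was lower in OKS + FoxO6 on all 5 days, although at day 0 only 4 and 1 reads were counted.

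Bst2 (chr8:71534255-71537456, minus strand) encodes tetherin, which holds budding virus particles at the cell surface. It rose from a clear starting level, at 36.0 and 39.7 TPM on days 0 and 1 in OKS + DR and 33.7 and 35.0 TPM in OKS + FoxO6. It then reached 277, 605 and 521 TPM in the control and 61.9, 285 and 554 TPM with FoxO6. The control was 4.44 times higher on day 3 (interval 3.16 to 6.37) and 2.14 times higher on day 5 (1.79 to 2.56). On day 7 the ratio was 0.84 (0.73 to 0.98), with the higher level in OKS + FoxO6. Bst2 was the most abundant effector in each of the 10 libraries.

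Ifi44 (chr3:151730922-151749960, minus strand), an interferon-induced protein whose mode of action is less settled, had no reads in either day 0 library. It was at 0, 0.93, 13.5, 35.3 and 13.05 TPM in OKS + DR and at 0, 0, 11.9, 6.13 and 11.1 TPM in OKS + FoxO6. The day 3 levels look alike only in TPM. They rest on 24 reads in the control and 7 with FoxO6, and the estimated transcript length of that FoxO6 library was 605 bases against 2437 in the control library. In CPM, which takes no account of length, the control was 4.53 times higher on day 3 (1.89 to 12.5) and 5.88 times higher on day 5 (3.47 to 10.5). On day 7 the ratio was 1.57 (0.89 to 2.85), an interval that included equality.

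Rtp4 (chr16:23520291-23614222, plus strand) encodes a chaperone of receptors at the cell surface that also restrains RNA viruses. It was at 0, 3.61, 121, 255 and 136 TPM in OKS + DR and at 0.83, 7.80, 6.56, 109 and 130 TPM in OKS + FoxO6. On day 3 the counts were 104 and 7 reads, and the control was 19.6 times higher in CPM (9.20 to 50.04). The ratio was 2.46 (1.95 to 3.10) on day 5 and 0.94 (0.74 to 1.21) on day 7. Rtp4 overlaps the start of Masp1 on the opposite strand, which had at most 54 reads in a library, and strandedness of the counting is not given in the sources used here.

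The first comparison set the arms against each other on each day, as differences of log2(TPM + 1), OKS + FoxO6 minus OKS + DR, with a 2-fold difference as the threshold that the study used. With 1 library per arm and day there is no replicate check within a day, and no p-value is given. On day 3 all 10 effectors were lower in OKS + FoxO6, with a median difference of -2.02, and 7 were over 2-fold lower (all but Ifit2, Rsad2 and Ifi44). On day 5 all 10 were again lower, with a median of -1.31, and 7 were over 2-fold lower (all but Ifit2, Usp18 and Rsad2). Over the 15011 genes with a mean of at least 1 TPM, 11.8% were over 2-fold lower on day 3 and 11.4% on day 5, while 8.21% and 10.3% were over 2-fold higher, and the median differences were 0 and 0.0032. None of the effectors was over 2-fold higher on these days. In CPM, 9 of the 10 were over 2-fold lower on day 3, Rsad2 only just at -1.004. The share over all genes was not computed on that scale.

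Before and after these days the differences went both ways. On day 0 the median was 0.17, with Oasl2 over 2-fold lower (6.41% of all genes) and Usp18 over 2-fold higher (10.6%). On day 1 it was 0.12, with 2 effectors over 2-fold lower (9.43% of all genes) and 3 over 2-fold higher (8.10%), and these 5 had at most 12 reads in either library. Over the effectors with a mean of at least 5 TPM the day 1 median was -0.18, so its sign depended on the genes kept. On day 7 the median was -0.17 beside -0.14 over all genes, and 7 effectors were lower and 3 higher. Ifit2 was then over 2-fold lower (16.5% of all genes) and Usp18 over 2-fold higher (8.30%). Whether the day 7 difference departs from those of days 3 and 5 was not tested.

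**Figure D2:**
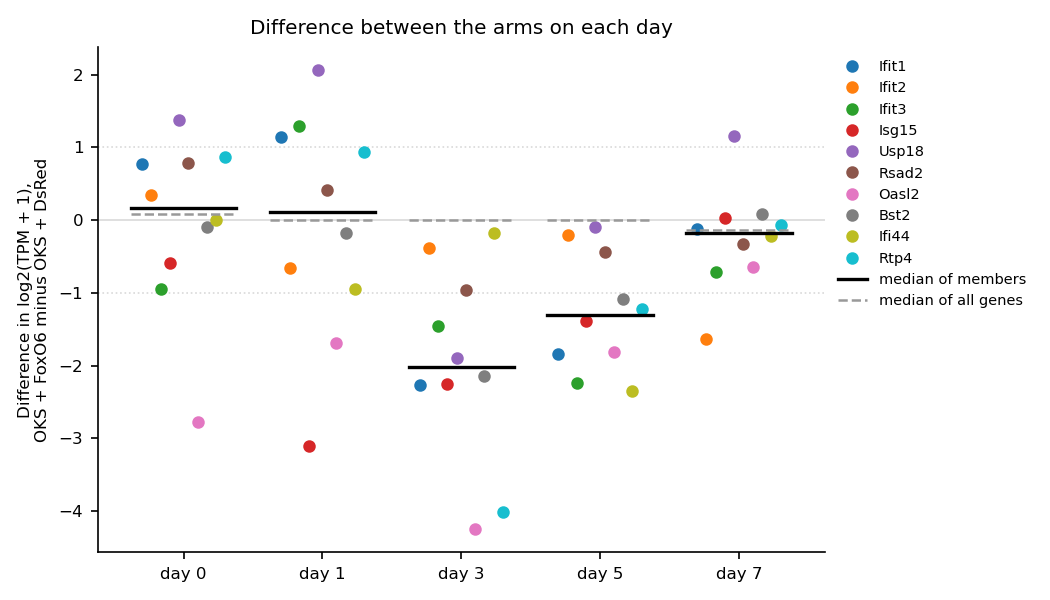
Difference in log2(TPM + 1), OKS + FoxO6 minus OKS + DsRed, for each of the 10 effectors (coloured points, 1 library per arm) on each day, with the median of the effectors (black line), the median of all genes with a mean of at least 1 TPM (dashed grey line) and 2-fold differences (dotted lines). The black line drops to -2.02 on day 3 and -1.31 on day 5 and stands at -0.17 on day 7.

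The second comparison set each later day against day 0 of the same arm. In OKS + DR 1, 9, 9 and 9 of the 10 effectors were over 2-fold above day 0 in TPM + 1 on days 1, 3, 5 and 7, with median rises of 0.63, 3.95, 5.26 and 3.82 on the log2(TPM + 1) scale. Of all genes, 15.6%, 21.5%, 22.8% and 21.0% rose over 2-fold in that arm. In OKS + FoxO6 the counts were 4, 8, 9 and 9 and the medians 0.51, 2.04, 3.59 and 3.84, while 9.24%, 13.2%, 16.3% and 14.4% of all genes rose over 2-fold. Ifit2 was the effector outside the count on days 3, 5 and 7 in both arms, joined by Bst2 on day 3 in OKS + FoxO6. The largest rise was that of Rtp4 in the control on day 5.

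The time of the highest level also differed. In OKS + DR 9 effectors were highest on day 5, and on day 7 these 9 stood at 29.5% (Ifit1) to 86.1% (Bst2) of their day 5 TPM. In OKS + FoxO6 5 effectors, Ifit1, Ifit3, Oasl2, Bst2 and Rtp4, were highest on day 7, and 3, Isg15, Usp18 and Rsad2, on day 5. Several of these were near ties, with day 7 at 101% (Ifit1), 106% (Ifit3), 108% (Oasl2) and 91.5% (Isg15) of the day 5 TPM. Day 7 was at 119.8% of day 5 for Rtp4, 194% for Bst2, 84.1% for Usp18 and 58.3% for Rsad2. In CPM 7 were highest on day 7 and 2 on day 5. At the last day of OKS + FoxO6, Bst2 had reached 91.6%, Usp18 78.4% and Rtp4 51.1% of the highest control TPM, whereas Oasl2 stood at 30.7%, Ifit1 at 27.0% and Ifit3 at 20.9%. The effectors thus ended with different distances from the control peak, and no later day was sampled.

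A fit over both arms tested the shared course, with edgeR's quasi-likelihood test on the rounded read counts, day and arm as terms, and Benjamini-Hochberg adjustment over 12212 genes. All 10 effectors passed the filter on low counts. None was called on day 1, when 2.04% of all genes were called higher. On day 3 8 were called higher than on day 0, beside 8.44% of all genes, and on days 5 and 7 9 were, beside 12.2% and 11.7%. The exceptions were Ifit2 on every day and Ifit3 on day 3 (adjusted p = 0.0719). Bst2, which had reads on every day, rose by 1.93 ± 0.52 (standard error) on the log2 scale on day 3 (adjusted p = 0.0297), 3.42 ± 0.50 on day 5 (adjusted p = 0.000747) and 4.003 ± 0.50 on day 7 (adjusted p = 0.000242). The other 8 that were called had 0 to 4 reads per day 0 library, so their fitted folds depend on the constant that the fit adds and are not given as sizes. The days share their day 0 libraries, and the replication is that of the 2 arms.

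**Figure D3:**
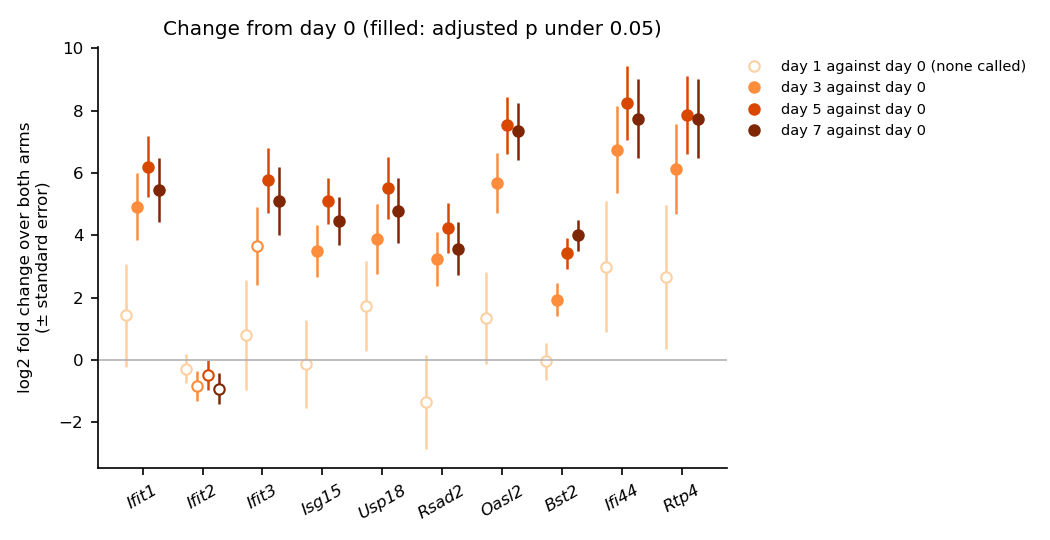
Fitted log2 fold change of days 1, 3, 5 and 7 against day 0 over both arms (points, with bars of 1 standard error) for each effector; filled points passed an adjusted p of 0.05 in edgeR's quasi-likelihood test. The points of Ifit2 stay below 0, those of the other 9 lie above it on days 3, 5 and 7, and the height of genes with few reads on day 0 depends on the constant added by the fit.

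The same fit tested a shift of OKS + FoxO6 against OKS + DR over the course, with the 5 days as the only replication of the arm. Oasl2 was lower with FoxO6 by a log2 fold change of -1.94 ± 0.45 (adjusted p = 0.0164) and Ifi44 by -1.83 ± 0.43 (adjusted p = 0.0219). These were 2 of 10 called lower, beside 6.89% of the 12212 genes tested, and none was called higher. Of the others, 7 had a negative coefficient and Usp18 a positive one of 0.19 ± 0.49 (adjusted p = 0.858), and the median of the 10 was -1.17 beside -0.02 over all genes. The window of days 3, 5 and 7 was chosen with earlier results of these data known, in which interferon lists differed most from day 3 on. Its p-values are therefore no independent support for a difference on these days. Over the 6 libraries of this window alone, 3 of 10 were called lower, beside 6.30% of 11931 genes. They were Ifi44 at -1.79 ± 0.40 (adjusted p = 0.0225), Ifit3 at -1.59 ± 0.41 (adjusted p = 0.0386) and Oasl2 at -1.92 ± 0.52 (adjusted p = 0.0463), while Ifit1 at -1.41 ± 0.41 missed the threshold (adjusted p = 0.0561).

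The number of calls changed with single days. Over the course none of the 10 was called without the day 5 libraries, where the log2 fold change of Oasl2 was -2.06 and calls over all genes went from 1651 of 12212 to 705 of 11945. Over the course 1 was called without day 3 (Oasl2, at -1.28), beside 773 of 12088 genes, and 6 (Ifit1, Isg15, Oasl2, Bst2, Ifi44 and Rtp4) were called lower without day 7, beside 1640 of 11854 genes called in either direction. Over days 3, 5 and 7 the count was 1 without day 5, beside 628 of 11508 genes, and 7 without day 7, beside 1398 of 11516. When each gene's estimated transcript length entered the fit, Oasl2 alone was called over the 5 days, beside 1144 of 12212 genes. Ifi44 had a coefficient of -1.11 there. Over days 3, 5 and 7 none of the 10 was called with that length, beside 1049 of 11931 genes. Ifi44 was then at -1.09, Ifit3 at -1.58 and Oasl2 at -2.03. With DESeq2, Ifit3 (at -1.59) and Oasl2 (at -2.07) lost their call over days 3, 5 and 7 and Ifit1 (at -1.45) gained one. Over all genes 978 of 11931 were then called. With limma on log2(TPM + 1), Ifi44 was at -0.74 over the 5 days and -0.91 over days 3, 5 and 7 and was not called in either. A term for a change of the arm difference after day 1 gave no call among the 10, and of all genes 0% were called, with 1059 genes at an unadjusted p under 0.05, among them 2 of the effectors, Ifit1 and Rsad2. The day 0 and 1 counts of most effectors, between 0 and 12 reads, leave this difference poorly measured.

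The pathway above the effectors was read from lists of its parts. Of 18 genes for type I interferons, 16 had no reads in any library. The others, Ifnab and Ifnz, had an expected count of at most 2.69, with a summed level of at most 1.75 TPM. This allows up to 3 reads of an undetected gene per library, and the interferon protein was not measured. The receptor genes and kinases, Ifnar1, Ifnar2, Jak1 and Tyk2, were present throughout with a sum of 172 to 256 TPM in OKS + DR and 177 to 320 TPM in OKS + FoxO6, and none of the 4 was called between the arms.

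Of the 4 transducers described, none was called between the arms over the 5 days and 1 was called lower with FoxO6 over days 3, 5 and 7, beside 6.30% of all genes. Stat2 was at 14.4, 34.1, 162, 300 and 102 TPM in OKS + DR and at 16.9, 36.4, 61.5, 140 and 70.6 TPM in OKS + FoxO6. It was called lower with FoxO6 over days 3, 5 and 7 (-0.98 ± 0.25, adjusted p = 0.0379, edgeR), and over the 5 days it was not called (-0.62 ± 0.25, adjusted p = 0.129). Irf7, which amplifies the response, stood at 92.6 against 16.0 TPM on day 3 and at 52.9 against 73.6 TPM on day 7, and it was not called between the arms (adjusted p = 0.403 over the 5 days). Against day 0, Stat2, Irf9 and Irf7 were called higher on days 3, 5 and 7 (3 of 4, beside 8.44%, 12.2% and 11.7% of all genes), and Irf3, which needs no induction, was not.

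The enzymes that attach ISG15 to proteins also differed between the arms. Uba7, the activating enzyme, was at 50.02 against 5.29 TPM on day 5 and 19.5 against 6.58 TPM on day 7, the control first. These levels rest on 74 against 17 reads and on 49 against 11 reads. Uba7 was called lower over the 5 days (-2.05 ± 0.42, adjusted p = 0.00893, edgeR), as was Ube2l6, the conjugating enzyme (-1.16 ± 0.34, adjusted p = 0.0467), beside 6.89% of all genes. Herc6, the ligase, joined them over days 3, 5 and 7 (-1.24 ± 0.22, adjusted p = 0.00744), beside 6.30% of all genes. On day 7 the level of Isg15 thus differed by less than counting error between the arms, that of the attaching enzymes was lower with FoxO6, and that of the removing enzyme Usp18 was higher.

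**Figure D4:**
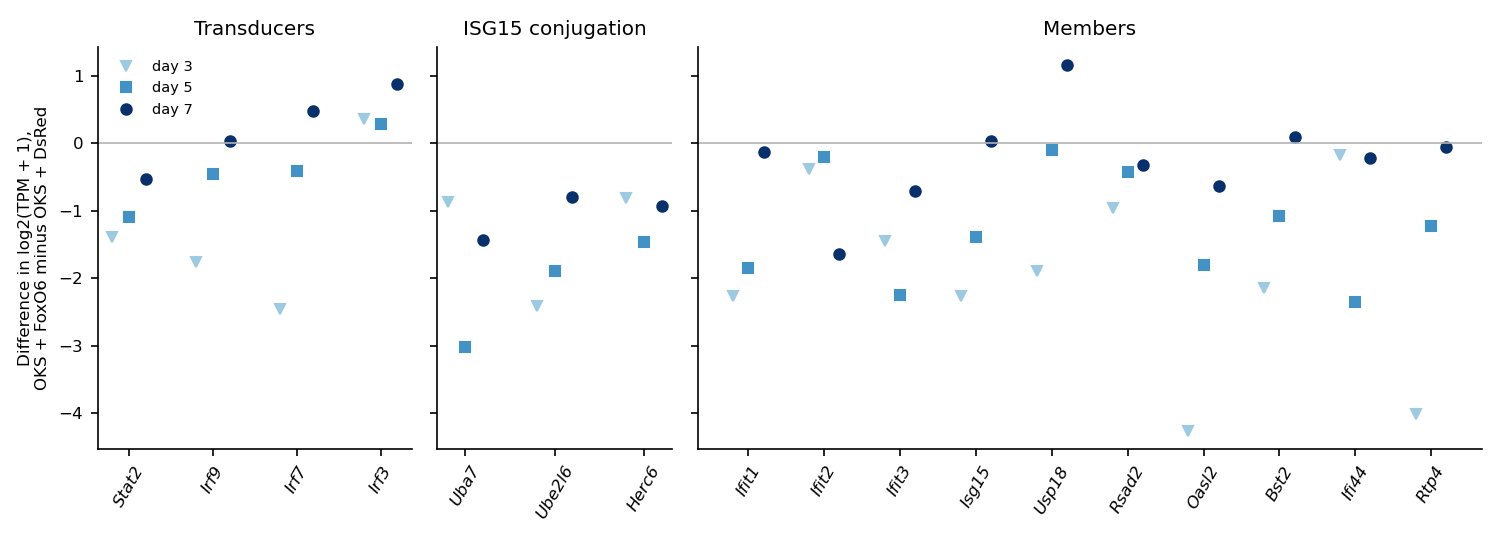
Difference in log2(TPM + 1), OKS + FoxO6 minus OKS + DsRed, on days 3 (triangles), 5 (squares) and 7 (circles), 1 library per arm and day, for the transducers, the enzymes of ISG15 conjugation and the 10 effectors. On day 7 Uba7 is still well below 0, while Isg15, Bst2 and Rtp4 lie near 0 and Usp18 lies above it.

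Among 8 negative regulators, Socs3, an inhibitor of JAK kinases, was called higher with FoxO6 over the 5 days (0.90 ± 0.12, adjusted p = 0.000766, edgeR), 1 of 8 beside 6.63% of all genes, and the other 7 were not called. Over days 3, 5 and 7 Socs1 (-1.56 ± 0.43, adjusted p = 0.0464) and the phosphatase gene Ptpn6 (-2.21 ± 0.55, adjusted p = 0.0335) were called lower and Socs3 higher, beside 6.30% of all genes lower and 5.83% higher. Of 47 other interferon-stimulated effectors 45 were tested. Over the 5 days 10 were called lower with FoxO6 and none higher, with a median log2 fold change of -0.53, beside 6.89% of all genes called lower, and over days 3, 5 and 7 11 were called lower, beside 6.30%. On days 1, 3, 5 and 7, 3, 22, 36 and 31 of the 45 were called higher than day 0, beside 2.04%, 8.44%, 12.2% and 11.7% of all genes, and none lower.

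The likeness of the 10 effectors was described by Pearson's r across the 10 libraries, on log2(TPM + 1), of each with the mean of the other members. It was between 0.91 (Usp18) and 0.98 (Ifit1) for 9 of them and -0.48 for Ifit2. Of 11482 genes with a mean of at least 5 TPM, those closest to the mean course were Pdzph1 (r = 0.99), Igtp, Oas1g, Zbp1, Tgtp1, Nfasc, Ssbp3 and Irgm1 (r = 0.98 each). Igtp, Tgtp1 and Irgm1 are interferon-inducible GTPases, Oas1g is an oligoadenylate synthetase and Zbp1 senses nucleic acids of unusual form. Igtp stood at 435 against 49.8 TPM on day 5 and 197 against 45.0 TPM on day 7, the control first. The points share their days and libraries, and the order depends on the measure, since by rank correlation 1 of the 8 (Nfasc) and in CPM 3 (Igtp, Oas1g and Irgm1) were again among the closest 8.

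The labelled cell type was checked against its markers. All 15 fibroblast markers were present, with a sum of 3193 to 10875 TPM in OKS + DR and 3474 to 10363 TPM in OKS + FoxO6, and 13 of the 15 were called lower on day 7 than on day 0, beside 10.1% of all genes. Between the arms over the 5 days, Dcn, Twist1, Postn and Pdgfra were called higher with FoxO6 (4 of 15, beside 6.63% of all genes) and Col3a1 and Prrx1 lower (2 of 15, beside 6.89%). Of 14 macrophage and leukocyte markers 3 reached 5 TPM in any library, with sums of 23.4 to 98.8 TPM in OKS + DR and 34.2 to 55.9 TPM in OKS + FoxO6. The defining marker Ptprc was at most 0.60 TPM, Adgre1 at most 0.59 TPM, and Cx3cr1 at 0 in all libraries. Cd68 was at 52.0 and 52.6 TPM on days 1 and 3 in the control beside 21.6 and 23.7 TPM with FoxO6, and on days 5 and 7 it was at 20.1 and 18.5 TPM beside 24.4 and 15.8 TPM. On day 0 Cd68 was at 7.95 TPM in the control and 23.4 TPM with FoxO6. Laptm5 was at 4.62, 27.5 and 69.9 TPM on days 0, 1 and 5 in the control and at 2.77, 7.04 and 27.6 TPM with FoxO6. It was called lower with FoxO6 over the 5 days (-1.10 ± 0.26, adjusted p = 0.0176, edgeR), but not over days 3, 5 and 7 (adjusted p = 0.0674). Of the plasmacytoid and other dendritic cell markers, which include Bst2 itself, Siglech, Flt3 and Ccr9 were at 0 in all libraries. The list without Bst2 summed to 39.8 to 141 TPM in OKS + DR and 32.8 to 124 TPM in OKS + FoxO6, nearly all of it from Tcf4. Of 8 lymphocyte markers Cd3g alone reached 5 TPM, at 16.4 and 19.7 TPM on days 5 and 7 with FoxO6 beside 4.55 and 6.42 TPM in the control, while Cd3e was at most 0.36 TPM. Of 9 endothelial markers 5 reached 5 TPM, with sums of 65.0 to 88.8 TPM in OKS + DR and 71.0 to 155 TPM in OKS + FoxO6, and Cdh5 was at most 1.24 TPM. Of these Kdr (2.20 ± 0.58, adjusted p = 0.0301, edgeR) and Tek (0.96 ± 0.13, adjusted p = 0.0012) were called higher with FoxO6 over the 5 days and Eng lower, beside 6.63% and 6.89% of all genes. The part of cells that express Cd68, Laptm5, Cd3g, Kdr, Tek or these fibroblast markers in the effector levels was not tested.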

How the data were processed

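RNA-seq libraries of reprogramming MEFs were analysed, 1 for each of 2 arms and 5 days. The authors aligned reads with Bowtie2 and deposited RSEM expected counts, TPM and effective lengths per gene on GENCODE M13 (mm10, per the labels), without versions in the sources used here. The labels name a VAHTS mRNA-seq V3 kit and the methods a TruSeq kit, and strandedness is not given. The deposited table of expected counts held 48476 of the 50600 genes with equal values, and the others held at most 0.312% of a library. Positions and types come from GENCODE M21 of the same assembly.

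Expected counts were rounded, filtered with filterByExpr (R 4.3.3, edgeR 4.0.16), scaled by TMM and tested with glmQLFit and glmQLFTest with Benjamini-Hochberg adjustment at 0.05. Alternatives used DESeq2 1.42.0, limma 3.58.1, other scalings, no filter, a length offset, a fit that omits day, and fits that leave out 1 day in turn. Differences of TPM used log2(TPM + 1). CPM used TMM library sizes, and 95% intervals were exact conditional binomial ones (scipy 1.17.1), which cover counting error only, since reads carry no molecular identifiers. Simulated 4-fold changes were recovered for 200 of 200 genes in the fit of the arms over the 5 days, with 7 false calls among 11999 genes. Over days 3, 5 and 7 they were recovered for 200 of 200, with 14 false calls among 11705 genes. In the change after day 1 they were recovered for 171 of 200, with 5 false calls among 12007 genes. Recovery of smaller changes is not given.

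The 10 genes and all lists were chosen with earlier results of these data known. All 10 were named, with the 8 genes of highest correlation and those parts of the pathway that help to read a value. Cd68, Laptm5, Cd3g, Socs1, Socs3, Ptpn6, Kdr, Tek and the other cell markers were named after their values were seen. Nothing says that libraries of an arm came from separate cultures, so p-values measure the spread between these libraries, and culture and arm cannot be told apart. One gene of the transducer list is not reported here.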

Additional observations from a re-analysis of the deposited data

Results flagged for a closer look

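Usp18 was singled out because the difference between the arms pointed in opposite directions on different days, each by over 2-fold and with a counting interval that excluded equality. On the log2(TPM + 1) scale, OKS + FoxO6 minus OKS + DR, it was 2.06 on day 1 (9 against 1 reads), -1.89 on day 3 (11 against 34 reads) and 1.15 on day 7 (60 against 29 reads). With 1 library per arm and day the difference between days was not tested in itself. The term for a change after day 1 gave -3.15 ± 1.68 on the log2 scale for Usp18, with an adjusted p of 0.628 in edgeR's quasi-likelihood test. None of the other 9 effectors met this criterion.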

How the results depend on the processing

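Of 10 effectors, 2 were called between the arms over the 5 days. The count was 7 without a filter on low counts, 1 with the effective length offset, 1 with limma on log2(TPM + 1), 0 without the day term and 0 to 6 with a day left out. Over days 3, 5 and 7, 3 were called, and the count was 7 without a filter, 0 with the length offset, 0 without the day term and 1 to 7 with a day left out. All calls in these alternatives were lower with FoxO6. Without a day term the course adds to the spread. The cause of the other changes was not tested. Over all genes the calls for the 5 days were 1651 of 12212. They were 2253 of 23222 without a filter, 1144 of 12212 with the length offset and 917 of 12212 with limma. Without the day term they were 169 of 11028, and with a day left out 705 of 11945 to 1640 of 11854. Over days 3, 5 and 7 they were 1448 of 11931, with 2178 of 21415 without a filter and 1049 of 11931 with the length offset. There the fit without the day term gave 534 of 11406, and leaving a day out gave 628 of 11508 to 1398 of 11516. For the change after day 1 they went from 0 of 12212 to 246 of 23222 without a filter and up to 80 of 12088 with a day left out. On day 1 against day 0 they went from 474 of 12212 to 1104 of 23222 without a filter and 307 of 12212 with the length offset.

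Changes of sign among the effectors concerned coefficients that were not called. With a day left out, Usp18 over the 5 days ranged from -0.32 (without day 7) to 0.83 (without day 3) around 0.19, and over days 3, 5 and 7 from -0.71 (without day 7) to 0.57 (without day 3) around -0.06, with 0.078 without the day term. For the change after day 1, the ranges were -5.70 to 2.12 for Ifit3, -0.24 to 4.12 for Isg15 and -1.78 to 2.47 for Ifi44, between leaving out day 0 and day 1, and -0.35 to 1.13 for Oasl2. Ifit2 on day 1 against day 0 became 0.17 with the length offset.

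With a pseudocount of 0.1, effectors over 2-fold lower with FoxO6 on day 0 numbered 2 and those higher 4, and in CPM those higher numbered 2. On day 1 those higher numbered 5 with that pseudocount. Shares over all genes were not computed for that pseudocount or for CPM. With the pseudocount of 0.1 the median rise in OKS + DR was 5.60 on day 3 and 5.53 on day 7. Of the 8 genes most like the effectors, 1 stayed by rank correlation and 3 in CPM. Of 115 alternative values of the main comparisons, 95 moved by less than 1.5 times or less than their counting interval. Day as a term pairs the arms by day, and the counts without it are those given above. Depth limits days 0 and 1, where most effectors had 0 to 12 reads.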
